A study of Homo sapiens with 2 samples.

Results

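The metallothioneins, their transcription factor MTF1 and the zinc exporter SLC30A1 were examined in berberine-treated HepG2 cells. The members were named genes, MT1A, MT1E, MT1F, MT1G, MT1H, MT1M, MT1X, MT2A, MTF1 and SLC30A1, and every probe that the platform annotation assigned to them was taken. These 10 genes stood against 20039 genes with a probe on the array, and 9 of the 10 had one, with 12 probes in all. HepG2 is a human hepatoma cell line. Its cells received 40 µM berberine chloride, a plant alkaloid diluted from a 50 mM stock in DMSO, for 4 h, or 0.08% DMSO for 4 h as the control, and total RNA of each group was hybridized to 1 Illumina HumanHT-12 v4 BeadChip. Each difference therefore compares 2 arrays, no test between the groups or replicate error could be computed, and in RNA of a whole culture a change per cell and a change in the share of expressing cells cannot be told apart.

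Metallothioneins are small cysteine-rich proteins that bind zinc, copper and cadmium and buffer free metal in the cell, and the liver is a main site of their synthesis. When zinc rises, the zinc finger factor MTF1 binds metal response elements in the promoters of metallothionein genes and of SLC30A1, which encodes a plasma membrane protein that carries zinc out of the cell. Transcription of metallothionein genes is also known to respond to glucocorticoids, oxidants and inflammatory cytokines.

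For each member promoter with a match, the metal response element about 50 bases before the start site is shown, since MTF1 is known to act through such elements. They were read from RefSeq promoters of GRCh38.p14, which cover 250 bases before and 50 bases after a gene start and which held 5 of the 10 members, MT1H, MT1X, MT2A, MTF1 and SLC30A1. The letters TGCACNC and TGCGCNC were searched on both strands, and capitals mark the match.
MT2A, chr16:56608519-56608548 (plus strand): ggcggggctttTGCACTCgtcccggctctt
MT1H, chr16:56669750-56669779 (plus strand): ggcagggtctcTGCACCCggctccctcccc
MT1X, chr16:56682406-56682435 (plus strand): ggcggggcctcTGCGCCCggccctcttccc
SLC30A1, chr1:211579192-211579221 (minus strand): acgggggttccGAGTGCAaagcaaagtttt
The matches shown began 54 bases before the start of MT2A, 53 before those of MT1H and MT1X and 49 before that of SLC30A1, where the reverse complement of the letters was found. MT2A and MT1H held 8 matches each, MT1X held 4 and SLC30A1 held 2, whereas the MTF1 window had none of these letters. Of all 35116 promoters of this length, 29.6% held at least 1 match and 0.601% held at least 4.

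A second pair of matches in MT1H and MT1X lay at the same place in both promoters, with the first base 78 bases before the start and are shown for this shared place.
MT1H, chr16:56669725-56669754 (plus strand): ctcagtgggtcGGGTGCAagggtggggcag
MT1X, chr16:56682381-56682410 (plus strand): tcagcaggggcGGGTGCAaggacgaggcgg
MT2A also held the letters of an AP-1 site, TGAGTCA or TGACTCA on either strand, which was absent from the windows of the other 4 members and present in 4.95% of all promoters. Its first base lay 104 bases before the start, and it overlapped a match to the letters TGACNNNGC of the antioxidant response element, which 13.3% of all promoters held on either strand.
MT2A, chr16:56608469-56608498 (plus strand): ggagccgcaagTGACTCAgcgcggggcgtg
The letters of the antioxidant response element were also found in MT1X and SLC30A1. A TATA box, TATAAA on the sense strand, stood in the windows of MT2A and MT1X and in 7.33% of all promoters. These matches describe letters only.

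The arrays gave a median intensity of 130.1 for berberine and 120.6 for control, and 32.6% and 32.5% of 47231 probes were detected at a detection p under 0.01, the chance of such a signal among negative controls. Genes with at least 1 probe that passed this on both arrays are called measured here, and the value of a gene is that of its brightest such probe after background correction and quantile normalization, on the log2 scale. Intensities are given before background correction and normalization, and folds and log2 differences after both, unless deposited values are named. A fold is therefore not the ratio of the 2 intensities beside it. Among the hepatocyte markers, 11 of 13 had a probe, all 11 were measured and none differed by over 1.5-fold. No probe of 6 fibroblast and 5 endothelial markers was detected, and of 5 immune cell markers with a probe 1 was, the lysosomal protein CD68, with a log2 difference of 0.30 at its brightest probe and -0.45 at a second one detected on both arrays. The differences of 2 detected probes of the same gene, compared over 2193 genes, gave an SD of 0.25 for a single probe on the log2 scale, and 0.17 in the deposited normalized intensity, neither of which covers the spread between cultures.

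Of the 8 measured members, 2 were over 1.5-fold higher after berberine treatment, SLC30A1 and MT2A, 1 was lower, MTF1, and 5 were within 1.5-fold. Among all 9128 measured genes the shares past 1.5-fold were 3.87% in the higher and 4.09% in the lower direction. The difference was above 0 for 7 of the 8 members and for 47.5% of all measured genes. The members were chosen with earlier results of these data known, and the MT1 genes may not be separate measurements. These counts and shares are therefore a description only. With the deposited normalized intensity, from which no background was taken, 2 members were over 1.5-fold higher and 0 lower, against 1.44% and 1.01% of all measured genes.

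**Figure D1:**
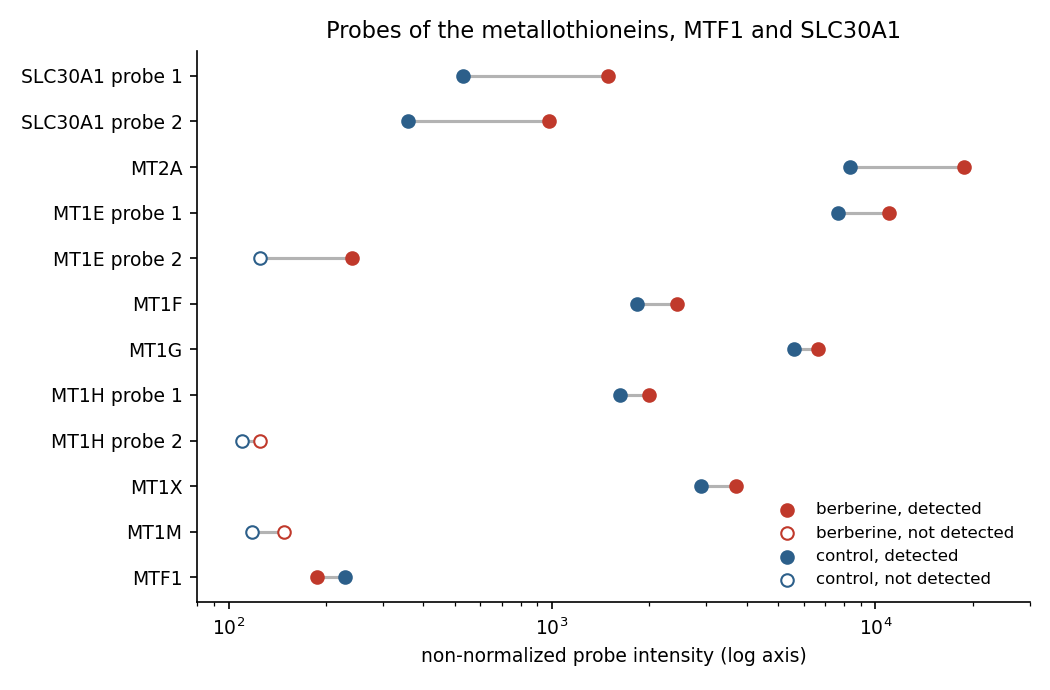
Non-normalized intensity of the 12 member probes (log axis) on the berberine array (red) and the control array (blue), with open circles for probes not detected at a detection p under 0.01. Both SLC30A1 probes and the MT2A probe are far brighter on the berberine array, and MTF1 is dimmer there.

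SLC30A1 had the largest difference of the measured members. Its brighter probe had an intensity of 1493 on the berberine array and 533 on the control array. After background correction and normalization this probe was 2.996-fold higher, with a log2 difference of 1.58. The other probe, annotated to the same RefSeq transcript, had 979 on the berberine array and 358 on the control array. After the same steps it was 3.19-fold higher, with a log2 difference of 1.67. The 2 probes thus differed by 0.09 on the log2 scale, within the single-probe SD, and 24 of the 9128 genes had a higher difference than the brighter one. In the deposited normalized intensity the folds were smaller, at 2.63 and 2.57.

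MT2A, the single MT2 gene among the members, had an intensity of 18776 on the berberine array and 8353 on the control array. It was 2.10-fold higher, with a log2 difference of 1.07, and 77 of the measured genes had a higher one. The deposited normalized intensity gave 18636 for berberine and 8697 for control, a 2.14-fold difference. Among the 1237 measured genes at least as bright as MT1H, the dimmest measured metallothionein, 2.18% were over 1.5-fold higher. MT2A rests on 1 probe, and the highest intensity on the berberine array was 27010.

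The measured MT1 genes, MT1E, MT1F, MT1G, MT1H and MT1X, were all brighter on the berberine array but none by over 1.5-fold. MT1E had an intensity of 10994 on the berberine array and 7679 on the control array, and was 1.32-fold higher with a log2 difference of 0.40. MT1F had 2438 on the berberine array and 1831 on the control array, with a log2 difference of 0.32. MT1X, at 3694 on the berberine array and 2884 on the control array, had a difference of 0.26. These 3 differences exceeded the single-probe SD, and 740, 1082 and 1379 of the measured genes had higher ones.

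The differences of MT1H and MT1G stayed within the single-probe SD of 0.25. In the deposited values MT1G, with 0.15, stayed within the SD of 0.17, but MT1H, with 0.18, exceeded it. MT1H had an intensity of 2001 on the berberine array and 1626 on the control array, with a log2 difference of 0.20. MT1G had 6657 on the berberine array and 5605 on the control array, with a log2 difference of 0.15, and 2303 genes had a higher one. Over the 5 genes the median difference was 0.26, and the difference of MT2A was 0.67 above that of MT1E, the highest of them. Over the 6 measured metallothioneins the median was 0.29, against -0.01 over all measured genes. The MT1 genes are close copies of each other, so which transcripts bound each probe is uncertain, and these differences may not be separate measurements.

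**Figure D2:**
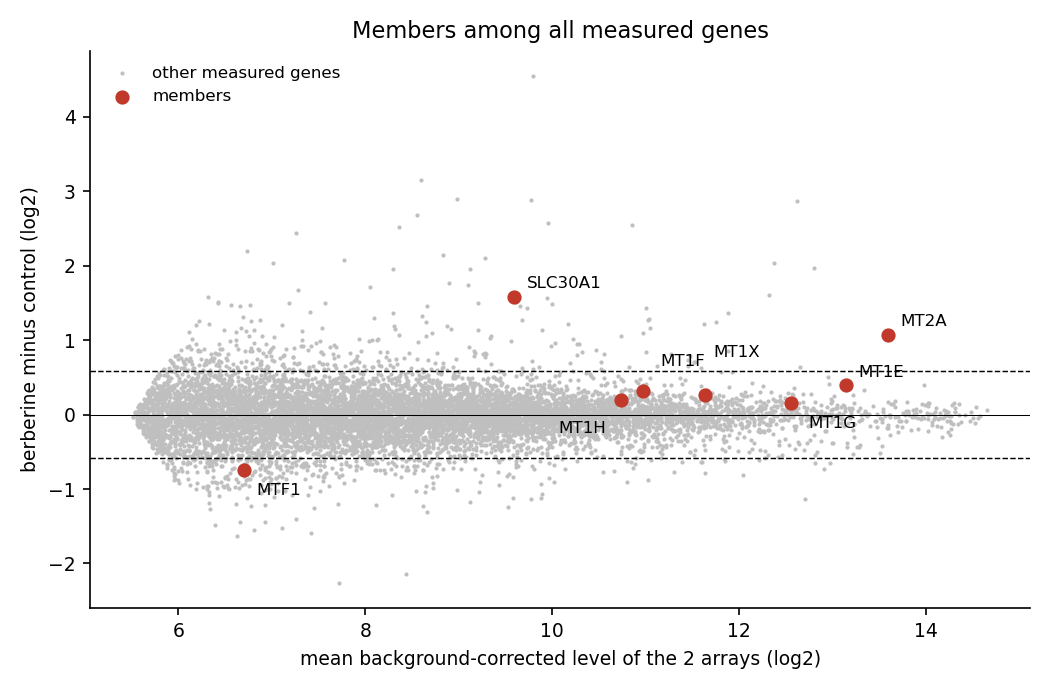
Log2 difference, berberine minus control, of each of the 9128 measured genes (grey) and the 8 measured members (red) against the mean background-corrected level of both arrays (log2), with dashed lines at 1.5-fold. SLC30A1 and MT2A lie above the upper line, MTF1 below the lower one, and the 5 MT1 genes between 0 and the upper line.

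A dim second probe of MT1E, annotated to the same RefSeq transcript as the first, was detected on the berberine array only. Its intensity was 242 on the berberine array, with a detection p of 0, and 125 on the control array, with a detection p of 0.0779. It was at least 2.94-fold higher on the background-corrected scale, where the bound is taken against the lowest level of a detected probe on the control array, and at least 1.60-fold in the deposited values. The 2 probes of MT1E were therefore both brighter after treatment, by unequal folds. The second probe of MT1H, with an intensity of 125 on the berberine array and 110 on the control array, was not detected on either.

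MT1M had a probe that was not detected on either array at the threshold used. Its intensity was 148 on the berberine array, with a detection p of 0.0130, and 119 on the control array, with a detection p of 0.204. The deposited normalized intensity of this probe was 146 for berberine and 126 for control. MT1A had no probe assigned to it by the annotation used here and was not analysed.

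Of the other metallothionein genes and pseudogenes, 5 of 13 had a probe, MT1B, MT1L, MT1IP, MT3 and MT4, and none was detected on either array. MT1B had a detection p of 0.0779 on the berberine array and 0.649 on the control array. MT3 and MT4 are known mainly from the brain and from stratified epithelia. In RefSeq the metallothionein cluster on chromosome 16 holds 16 metallothionein genes, 11 protein-coding ones and 5 pseudogenes. Its measured genes lie in the order MT2A, MT1E, MT1F, MT1G, MT1H and MT1X, so the largest difference stood at one end of the measured stretch.

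Of 9 genes that flank the cluster, 4 were measured and none differed by over 1.5-fold, and 2 of the 4, NUDT21 and NUP93, lay within the range of the MT1 genes. NUDT21, a subunit of the mRNA 3′ end cleavage factor, had an intensity of 1110 on the berberine array and 851 on the control array, with a log2 difference of 0.33. NUP93, a nuclear pore protein, had 0.19. BBS2, a cilium protein, had 0.03 at its brightest probe and -0.20 at a second one detected on both arrays. OGFOD1, a ribosomal protein hydroxylase, had -0.13 at its brightest probe and 0.26 and 0.13 at its other detected ones, so neither gene has a settled direction. The difference of NUDT21 was thus above those of MT1F, MT1X, MT1H and MT1G, and that of MT2A was above all 4 flanking genes.

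**Figure D3:**
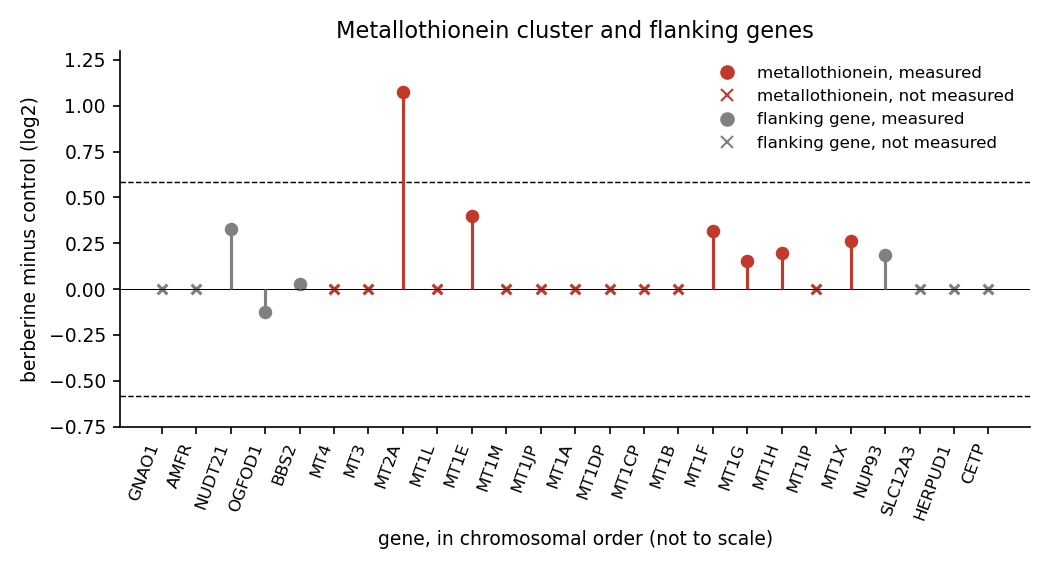
Log2 difference, berberine minus control, of the metallothionein genes of chromosome 16 (red) and of the flanking genes (grey), in chromosomal order and not to scale, with crosses at 0 for genes not measured and dashed lines at 1.5-fold. MT2A alone passes 1.5-fold, and of the MT1 genes MT1E lies above NUDT21, MT1G below NUP93 and the other 3 between them.

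MTF1 was dim on both arrays. Its probe had an intensity of 187 on the berberine array, with a detection p of 0.00130, and 229 on the control array, with a detection p of 0. It was 1.67-fold lower, with a log2 difference of -0.74, and 179 of the measured genes had a lower one. In the deposited normalized intensity, with 185 for berberine and 240 for control, it was 1.29-fold lower and did not pass 1.5-fold. MTF1 is activated by zinc binding and nuclear entry of the protein, so its mRNA does not measure its activity.

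**Figure D4:**
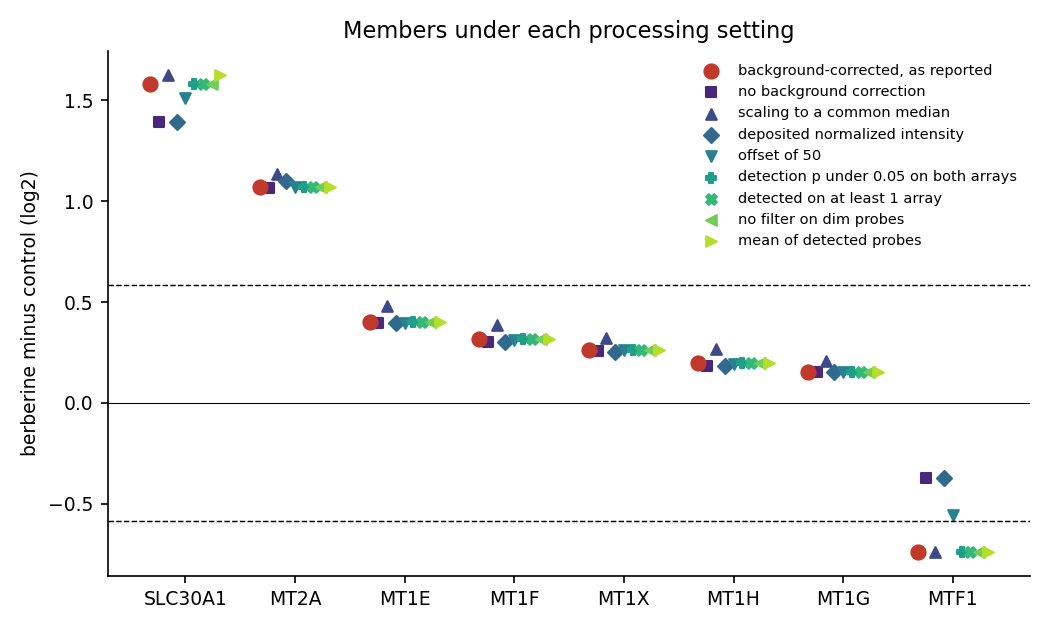
Log2 difference, berberine minus control, of the 8 measured members under the reported setting (large red circles) and 8 alternatives, with dashed lines at 1.5-fold. SLC30A1 and MT2A stay above 1.5-fold under all of them, while MTF1 lies within 1.5-fold under 3. The MT1 genes, each at its brightest probe, stay within 1.5-fold under all settings, and the dim second probe of MT1E is not shown.

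Among the other zinc exporters of the SLC30 family, none was over 1.5-fold higher. Of 9 genes with a probe, 5 were measured, and all 5 had a difference below 0, with a median of -0.33 and of -0.16 in the deposited values. Over all measured genes, 47.5% had a difference above 0, 3.87% were over 1.5-fold higher and 4.09% lower, so these counts of few genes are a description only. SLC30A7, which moves zinc into the Golgi, was 1.59-fold lower, with an intensity of 435 on the berberine array and 597 on the control array. In the deposited values it was 1.45-fold lower and did not pass 1.5-fold. SLC30A5, a Golgi exporter of the early secretory pathway, had -0.38 at its brightest probe and -0.10 at a second one detected on both arrays. SLC30A10, known as a manganese exporter, had -0.33, and -0.12 in the deposited values, and SLC30A9 and SLC30A3 had -0.17 and -0.13. The difference of SLC30A1 was thus the single one above 0 among the 6 measured genes of the family.

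The importers of the SLC39 family, which bring zinc and other metals into the cytosol, showed small differences. Of 14 genes with a probe, 9 were measured and none differed by over 1.5-fold in either direction, with a median of -0.03 and a range of -0.25 to 0.18. SLC39A3 had -0.25 at its brightest probe, and its other detected probes gave -0.13 and 0.40. SLC39A6 had -0.21 at its brightest probe and -0.005 at a second one detected on both arrays. SLC39A4, the intestinal zinc importer, had 0.18 at its brightest probe, and SLC39A5 had -0.10.

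**Figure D5:**
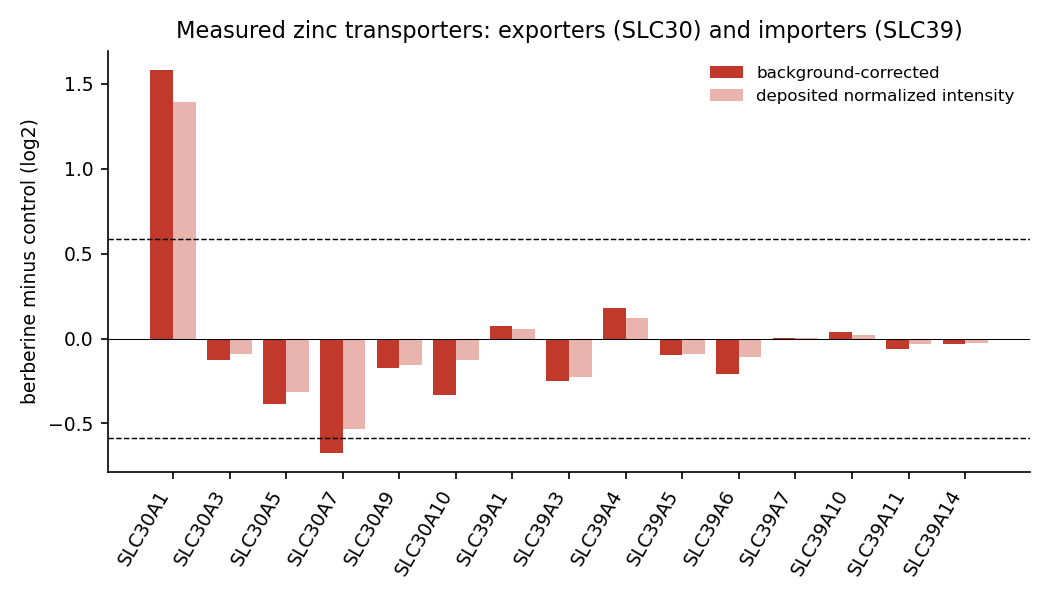
Log2 difference, berberine minus control, of the 15 measured zinc transporters in background-corrected values (dark bars) and in the deposited normalized intensity (light bars), with dashed lines at 1.5-fold. SLC30A1 alone is higher by over 1.5-fold, and SLC30A7 passes the lower line in the background-corrected values only.

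Of 10 other genes known to respond to metals, 7 were measured, with a median of -0.04. Of these 7, 1 was over 1.5-fold higher and 1 lower, against 3.87% and 4.09% of all measured genes. In the deposited values 1 was higher and 0 lower, where the shares over all measured genes were 1.44% and 1.01%. HAMP, which encodes the iron hormone hepcidin, was 2.98-fold higher, with an intensity of 1871 on the berberine array and 653 on the control array. HMOX1, the heme-degrading enzyme, was 1.58-fold lower, with an intensity of 462 on the berberine array and 629 on the control array, and 1.44-fold lower in the deposited values. The stress chaperones HSPA1A and HSPA1B, which are near-identical copies, had -0.51 and -0.48.

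All 7468 measured genes with a promoter in the table were also grouped by their number of metal response element matches, as a description. Of 61 genes with 4 or more matches, 1 was over 1.5-fold higher, MT2A, and 4 were lower, which is 1.64% and 6.56%. Of 4542 genes with no match, 3.92% were higher and 4.01% lower, and the median difference was -0.02 in both groups of genes. With 1, 2 and 3 matches, 3.24%, 4.55% and 3.72% were higher and 3.8%, 3.98% and 3.19% lower. SLC30A1 is among the genes with 2 matches. MT1E, MT1F and MT1G had no promoter to search and are in none of these groups.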

How the data were processed

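Illumina HumanHT-12 v4 BeadChips, 1 for berberine and 1 for control, were used for total RNA. The labels give a Roche column kit for the RNA and the study's methods give TRIZOL. GenomeStudio is listed in the submitters' processing notes, without a version in the sources used here. One table that the authors deposited holds probe intensity before background subtraction and normalization, and beside it each array's detection p-value. They also deposited normalized intensity on the linear scale, with the same ranks within an array (rank correlation 1) and with sorted columns that differed by at most 0.103%. Quantile normalization with the background kept would give such columns, but the sources used here name no method. The median was 128.0 in both columns.

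Main values came from neqc of limma 3.58.1 in R 4.3.3 (background from the detection p-values, normexp, offset of 16, quantile normalization, log2). Folds of dim probes depend on the offset. Python 3.11.15, pandas 2.3.3, numpy 2.4.6 and matplotlib 3.10.9 were used for the rest. Of 47231 probes, 30113 had 1 gene symbol, 8 several and 17110 none, and only the first entered gene values and counts. RefSeq gene names of GRCh38.p14 replaced older symbols, through the Entrez identifier for 30074 probes. The 1.5-fold threshold is that of the study. With 1 array per group, the number of arrays limits the precision. The members and gene lists were chosen with earlier results of these data known. All members were named, and of each other list the genes over 1.5-fold and up to 4 with the largest absolute difference. With 2 arrays, likeness of patterns between genes could not be measured. The steps were tested on simulated data with 200 changed genes, and 8 alternatives were run. Of genes raised 2-fold there, 50 of 50 passed 1.5-fold, and of measured genes lowered 2-fold 45 of 48 did. Of 10509 measured genes left unchanged there, 86 also passed 1.5-fold in either direction. The simulated probe error was smaller than the single-probe SD of these arrays, so this checks the steps and not the noise of the data.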

Additional observations from a re-analysis of the deposited data

How the results depend on the processing

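The number of members over 1.5-fold higher was 2 and stayed 2 under 7 of the 8 alternatives, and it was 3 with no filter on dim probes, where MT1M was added. Over all genes of each setting the share over 1.5-fold higher ran from 1.44% to 5.4%, and it was 3.35% with no filter. The number of members over 1.5-fold lower was 1, MTF1, and became 0 with no background correction, with the deposited normalized intensity and with an offset of 50, since the log2 difference of MTF1 was then -0.37, -0.37 and -0.56. In these settings the share of all genes over 1.5-fold lower was 1.01%, 1.01% and 2.39%, against 4.09% in the reported one. The median over the measured metallothioneins lay between 0.28 and 0.35. All 64 recomputed differences of the 8 measured members kept their sign, and 62 moved within the single-probe SD, the exceptions being 2 of MTF1. Many of these values could not move. The changed detection filters kept the same probe for every measured member, and the mean of detected probes altered SLC30A1 alone. No background correction also came close to the deposited values, so the 64 are not separate checks. SLC30A1 ranged from 1.39 to 1.63 and MT2A from 1.07 to 1.13. Of 336 recomputed values of other lists and their named genes, 325 moved within the single-probe SD or, for counts, by no more than 1.5 times, and none of those over 1.5-fold turned its sign. Differences of probes near the background, such as MT1M, are limited by their signal over background. No paired analysis was possible because each group has 1 array and the groups share 1 replicate number.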

Other observations

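Genes of other pathways in which metallothioneins are commonly placed were read from the same arrays. Of 12 copper handling genes, 10 were measured and none differed by over 1.5-fold, with a median of 0.00 and a range of -0.24 to 0.14. The copper importer SLC31A1 had -0.24, the copper-exporting ATPase ATP7B had -0.15 and SCO1, a mitochondrial copper chaperone, had 0.14. CCS, the copper chaperone of superoxide dismutase, had -0.22 at its brightest probe and 0.20 at a second one.

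Metallothionein genes are also known glucocorticoid targets. Of 10 glucocorticoid response genes, 4 were measured and 6 were detected on neither array. Of those measured, 1 was over 1.5-fold higher, against 3.87% of all measured genes. ERRFI1, a feedback inhibitor of the EGF receptor, was 3.05-fold higher, with an intensity of 9351 on the berberine array and 2922 on the control array. The other 3 were within 1.5-fold, FKBP5, a cochaperone of the receptor, with 0.04, the kinase gene SGK1 with -0.34 and the receptor gene NR3C1 with 0.00. Of these 3, SGK1 had 2 further detected probes, with -0.17 and -0.06.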
